A study of Mus musculus with 3 samples.

Results

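The genes described here are 10 transcription factors of the B-cell lineage, Ebf1, Pax5, Foxo1, Ikzf3, Pou2af1, Erg, Lef1, Sox4, Bach2 and Irf4, taken by symbol from the 19059 genes measured. All 10 were found in the files, and all 10 passed the filters on low counts used below. They were measured in viable CD45+ (pan-leukocyte) cells sorted by flow cytometry from the livers of newborn mice at postnatal day 0, after red cells had been lysed, with a fixed-RNA probe assay that reads single cells as unique molecular identifiers (UMIs). There were 3 libraries, 1 for each genotype at the Pex2 locus: pex2+/+ (WT), pex2-/+ (Het) and the homozygous null pex2-/- (KO), which lacks a gene needed to assemble peroxisomes. The number of animals in a library and the nature of the null allele were stated in none of the sources used here. With 1 library per genotype, differences between genotypes have no replicate check and no test, and their intervals cover counting error only.

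B-cell precursors in the liver around birth pass through ordered steps. Ebf1 and Pax5 commit a lymphoid progenitor to the B lineage, and Foxo1 turns on recombination genes in the same cells. The surrogate light chain, made of Igll1 and Vpreb proteins, pairs with the new heavy chain to form the pre-B receptor on dividing precursors. Signals from that receptor raise Irf4 and Ikzf3, which end the dividing phase, and cells that have rearranged a light chain gain surface immunoglobulin and Ms4a1 (CD20). Erg, Lef1 and Sox4 are best known for work at the progenitor and early precursor steps, Bach2 for a checkpoint on the pre-B receptor, and Pou2af1 as the partner of octamer-binding factors at immunoglobulin genes. Plasmacytoid dendritic cells, which make interferon, share several lymphoid genes with B precursors but are held away from the B lineage.

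The libraries held 9327 (WT), 7814 (Het) and 7947 (KO) cells after likely doublets were removed, with 96629431, 144589956 and 186295183 UMIs over all barcodes. Levels are given as CPM, a gene's UMIs over all UMIs of the same cells on a scale common to all libraries. The Pex2 level was 23.6 CPM in WT, 53.3 in Het and 0.0107 in KO, so the library labelled WT had less than the library labelled Het. WT, Het and KO are therefore used only as the names of the libraries so labelled. The summed level of 4 Y-linked genes was 172 CPM in WT, 0.0415 in Het and 0.0644 in KO. Sex and genotype therefore cannot be told apart between WT and either KO or Het. No full cell barcode was shared between libraries, while 961 to 1184 barcodes per pair shared their leading 16 bases. B-lineage cells, named from clusters by their marker genes, numbered 1879 in WT, 1260 in Het and 889 in KO. They made up 20.1%, 16.1% and 11.2% of the cells and held 12.3%, 9.43% and 3.40% of the UMIs. All 15 B-lineage markers were found in these cells in each library, with a summed level of 18273, 18630 and 27586 CPM. The clusters were named from this same list, so that is no separate check. Of 8 T-cell markers Cd3e, Cd8a and Bcl11b were at 0 in them in each library, and Cd4 was also at 0 in KO. Cd3d, Cd3g, Trac and Lat had UMIs in each library. The summed level of the 8 was 14.5 to 45.5 CPM.

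Stages were set within B-lineage cells by the UMIs of 3 kinds of gate gene. Cells with at least 2 UMIs of Igll1 and Vpreb1 and none of Ms4a1 or Ighd formed the surrogate light chain stage, with 300 cells in WT, 150 in Het and 16 in KO. Cells with fewer than 2 surrogate light chain UMIs and none of Ms4a1 or Ighd formed the later stage, with 508, 197 and 193 cells. Cells with at least 1 UMI of Ms4a1 or Ighd and fewer than 2 of the surrogate light chain formed the immature stage, with 780, 616 and 613 cells. Cells that met both gates, 291, 297 and 67 in number, were kept apart and are given beside the surrogate light chain stage.

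The B lineage of the KO library was poor in surrogate light chain cells and rich in immature cells. Surrogate light chain cells were 16.0% of WT B-lineage cells (exact binomial 95% interval 14.3 to 17.7), 11.9% in Het (10.2 to 13.8) and 1.80% in KO (1.03 to 2.91). With the cells that met both gates added, the shares were 31.5%, 35.5% and 9.34%. Immature cells were 41.5% in WT, 48.9% in Het and 69.0% in KO (65.8 to 72.0). The later stage held 27.0%, 15.6% and 21.7%, so KO lay between the other libraries there. The gates were also set on cells thinned to 3000 UMIs, with shallower cells left out and at least 1 UMI asked at both gates. The KO share of the later stage then became 1.04 times that of WT. With the immature gate on Ms4a1 alone it became 1.10 times that of WT, so its direction against WT rests on the gate.

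**Figure D1:**
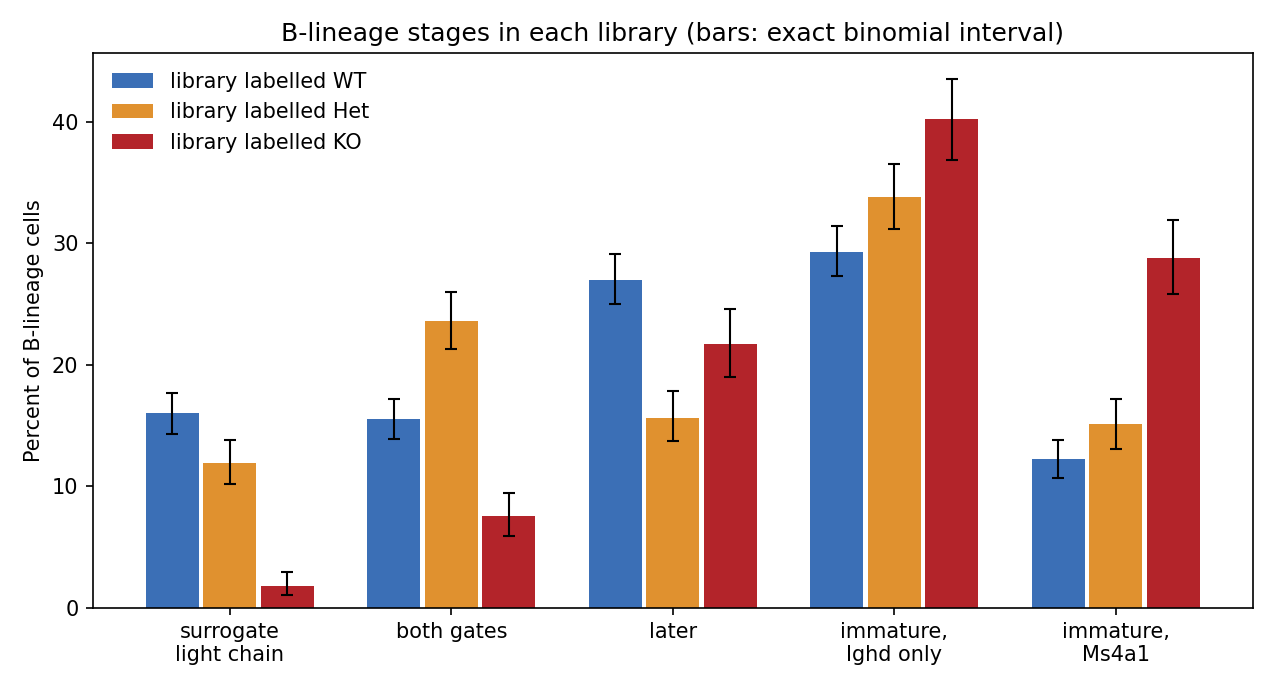
Percent of B-lineage cells (vertical axis, from 0) in each stage for the libraries labelled WT, Het and KO; bars are shares and whiskers exact binomial 95% intervals, which cover counting error only. The immature stage is drawn as its Ighd-only and Ms4a1 cells. The KO library has the lowest share in the surrogate light chain stage (1.80%) and the highest in both kinds of immature cell (40.2% and 28.8%).

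The immature gate takes in 2 kinds of cell. Cells with an Ms4a1 UMI were 229, 190 and 256 in WT, Het and KO, or 12.2%, 15.1% and 28.8% of the B lineage. Cells with Ighd UMIs alone were 551, 426 and 357. An Ms4a1 or Ighd UMI was also found in 47.0%, 61.4% and 47.8% of plasmacytoid dendritic cells, all from Ighd since Ms4a1 was at 0 in them. The Ighd-only cells and the Ms4a1 cells are therefore drawn apart in the figures of stage shares and of levels by stage. This split was chosen after the values were seen. In the text most levels are those of the Ms4a1 cells or of the whole immature stage. Cells with Mki67 or Top2a UMIs, taken as dividing, were 70.0% to 75.0% of the surrogate light chain stage and 23.8% to 52.3% of the later stage. They were 14.4% to 27.4% of Ms4a1 cells. Of Ighd-only cells they were 47.5% in WT, 58.2% in Het and 31.9% in KO, above the later stage of the same library (41.9%, 52.3% and 23.8%). These shares are not thinned, and the median UMIs per cell were 7210.5, 12079.5 and 8747 in the surrogate light chain stage of WT, Het and KO against 3136, 5186 and 4258 in the later stage.

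Neutrophil RNA was found in every stage. All 15 neutrophil markers had UMIs in every stage of every library, except Ctsg at 0 in the surrogate light chain stage of KO. Their summed level in that stage was 31698 CPM in WT, 22629 in Het and 54626 in KO. In the immature stage it was 26292, 12806 and 9365, and in the later stage 27980, 28343 and 7800. Its part in the results by stage was not tested. Of the 10 genes Erg was the one that neutrophils held in quantity, at a median of 86.6 CPM over libraries, with Foxo1 next at 4.78.

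Among the members, Erg and Lef1 were genes of the surrogate light chain stage and Ikzf3 was a gene of the stages after it, in all 3 libraries. Erg fell 14.8-fold and Lef1 3.71-fold from the surrogate light chain to the later stage, and Ikzf3 rose 2.52-fold. Foxo1, Pou2af1, Bach2, Sox4 and Irf4 rose by 1.40-fold to 1.85-fold, and Ebf1 and Pax5 did not pass the test at this step. In all, 6 of 10 members rose and 2 fell at an edgeR adjusted p under 0.05, where 16.3% of the 9788 genes tested rose and 16.2% fell. The test summed the UMIs of each stage in each library and held the library as a term, so it compares stages within the 3 libraries.

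Erg, an ETS factor of stem cells and early lymphoid precursors, lies on chromosome 16, minus strand, 95359169 to 95586593 (GRCm38). Its level in the surrogate light chain stage was 224 CPM in WT, 238 in Het and 161 in KO. In the later stage it was 21.6, 9.06 and 5.02, and in the immature stage 23.1, 13.9 and 7.24. All 3 libraries were thus high in the early stage and low after it, and the stages did not overlap. The log2 change from the surrogate light chain to the later stage was -3.89 (SE 0.25, edgeR adjusted p 3.92e-06), and to the immature stage -3.75 (SE 0.21, edgeR adjusted p 5.96e-07). In single cells thinned to 3000 UMIs, an Erg UMI was found in 35.9%, 47.9% and 25.0% of surrogate light chain cells and in 3.66%, 2.53% and 2.40% of later cells. Without thinning the early shares were 51.0%, 60.0% and 25.0%. The KO value rests on 31 UMIs in 4 of 16 cells, so its interval is wide (7.27% to 52.4%).

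Lef1, the nuclear partner of beta-catenin in Wnt signalling and a known factor of pro-B cell survival, lies on chromosome 3, plus strand, 131110471 to 131224356. Its level in the surrogate light chain stage was 752 CPM in WT, 753 in Het and 390 in KO. It was 170, 159 and 201 in the later stage and 82.0, 95.2 and 138 in Ms4a1 cells. WT and Het were close in each stage, and KO was lower than both in the early stage and higher than both in the stages after it. The step to the later stage was -1.89 on the log2 scale (SE 0.21, edgeR adjusted p 8.11e-05), and to the immature stage -1.95 (SE 0.20, edgeR adjusted p 3.40e-05). By library the later level was 0.225 times the early one in WT, 0.211 in Het and 0.515 in KO. A Lef1 UMI was found in 77.7%, 79.5% and 81.2% of thinned surrogate light chain cells, the KO share being 13 of 16 cells with an interval of 54.4% to 96.0%, too wide to compare.

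Promoter sequences were looked at for motifs of factors that are members or partners of members. The RefSeq promoter table (GRCm38.p6) matched 9 of the 10 members, Ikzf3 not among them, with 15 promoters of 300 bases, from 250 before to 50 after a transcription start. The EBF core CCCNNGGG, which Ebf1 binds, was in 2 of the 15, those of Erg and Foxo1, and in 13.7% of all 32851 promoters in the table. The Ikaros core TGGGAA, shared by the family of Ikzf3, was in 6 of 15 (25.6% of all), the PU.1 core GAGGAA in 5 (28.3%), and the E-boxes CAGCTG and CAGGTG in 2 each (16.3% and 20.2%). The LEF core CTTTGAA was in 1 (5.14%), and the octamer ATGCAAAT, the FOXO core GTAAACA and the AP-1 core TGANTCA were in 0 (1.74%, 3.65% and 7.81%). The 15 promoters come from 9 genes and are not independent. The Lef1 windows that start at 131110047 and 131110073 overlap and both hold the Ikaros core, so a site they share is counted for each. Both strands were searched. A match is only those letters in that window. The 250 bases before the start are printed 5′ to 3′ on the gene's strand for Erg (chr16:95586594-95586843, minus strand) and Foxo1 (chr3:52268087-52268336, plus strand), which hold the EBF core, shown in capitals, and for Lef1 (chr3:131110047-131110296, plus strand, 1 of its 4 RefSeq starts), which falls with Erg and holds no such match.
Erg: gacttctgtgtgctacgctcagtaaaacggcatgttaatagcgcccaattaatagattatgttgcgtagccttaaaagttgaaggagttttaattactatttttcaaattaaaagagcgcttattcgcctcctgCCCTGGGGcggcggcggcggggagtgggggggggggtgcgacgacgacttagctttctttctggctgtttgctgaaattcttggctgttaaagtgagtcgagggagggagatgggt
Foxo1: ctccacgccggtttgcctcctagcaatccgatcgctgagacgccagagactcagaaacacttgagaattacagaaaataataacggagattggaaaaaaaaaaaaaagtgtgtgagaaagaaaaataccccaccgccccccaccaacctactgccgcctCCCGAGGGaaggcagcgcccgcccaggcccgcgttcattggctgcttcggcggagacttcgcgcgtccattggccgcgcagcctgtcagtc
Lef1: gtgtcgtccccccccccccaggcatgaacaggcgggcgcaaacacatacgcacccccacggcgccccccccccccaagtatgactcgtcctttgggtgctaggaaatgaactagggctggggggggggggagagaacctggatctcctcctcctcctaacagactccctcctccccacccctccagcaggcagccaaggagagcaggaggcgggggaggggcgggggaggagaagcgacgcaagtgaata

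Ikzf3 (Aiolos), the Ikaros-family zinc finger protein that follows the pre-B receptor and ends pre-B division, lies on chromosome 11, minus strand, 98464902 to 98546031. It stood at 342 CPM in WT, 352 in Het and 317 in KO in the surrogate light chain stage. The later stage held 815, 674 and 1163, and Ms4a1 cells 1477, 1436 and 1658. The order of these 3 sets of cells was the same in every library. The rise to the later stage was 1.34 on the log2 scale (SE 0.15, edgeR adjusted p 7.50e-05), and to the immature stage 1.51 (SE 0.15, edgeR adjusted p 2.09e-05). Thinned cells with an Ikzf3 UMI went from 39.1%, 34.2% and 31.2% in the surrogate light chain stage to 96.2%, 97.1% and 97.8% in Ms4a1 cells.

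Ebf1 (chromosome 11, plus strand, 44617317 to 45008091), the pioneer factor of B-lineage commitment, did not pass the test at any of the 3 steps as gated, and was lowest in Ms4a1 cells. Its level was 739, 624 and 582 CPM in the surrogate light chain stage of WT, Het and KO, then 801, 630 and 820 in the later stage and 487, 415 and 405 in Ms4a1 cells. Its change to the later stage was 0.24 (SE 0.11, edgeR adjusted p 0.128). Pax5 (chromosome 4, minus strand, 44524757 to 44710487), which maintains B identity, was 891, 610 and 411 in the surrogate light chain stage and 1661, 1414 and 1334 in Ms4a1 cells, so each library was highest in the Ms4a1 cells. Pax5 rose by 0.61 to the immature stage (SE 0.16, edgeR adjusted p 0.00981) but missed the threshold to the later stage (0.35, edgeR adjusted p 0.113). The rise to the immature stage was also lost with the Het library left out, where only Foxo1 and Ikzf3 rose.

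Foxo1 (chromosome 3, plus strand, 52268336 to 52353221), a target of the kinase Akt that drives the recombination genes, was 268, 295 and 265 CPM in the surrogate light chain stage and 482, 453 and 610 in the later stage of WT, Het and KO. It rose by 0.89 on the log2 scale (SE 0.11, edgeR adjusted p 0.000181). Pou2af1 (chromosome 9, plus strand, 51213708 to 51240080), the octamer co-activator, went from 1170, 1189 and 1232 to 2074, 2061 and 1827, a rise of 0.78 (SE 0.12, edgeR adjusted p 0.000646). Both genes were therefore higher in the later stage in each library without overlap. They differed in the cells that followed: Pou2af1 was 1270, 1388 and 1122 in Ms4a1 cells, while Foxo1 was 400, 477 and 519.

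Bach2, Sox4 and Irf4 were highest in cells without Ms4a1. Bach2 (chromosome 4, plus strand, 32238804 to 32586108), a repressor that guards the pre-B checkpoint, was 427, 322 and 328 CPM in the surrogate light chain stage, 706, 509 and 566 in the later stage and 265, 184 and 226 in Ms4a1 cells of WT, Het and KO. Sox4 (chromosome 13, minus strand, 28948919 to 28953713), an HMG-box factor that precursors need to survive, was 643, 474 and 437, then 916, 720 and 766, then 226, 161 and 138. Both rose to the later stage, Bach2 by 0.77 (SE 0.10, edgeR adjusted p 0.000205) and Sox4 by 0.69 (SE 0.12, edgeR adjusted p 0.00160). Irf4 (chromosome 13, plus strand, 30749226 to 30766976), which drives light-chain rearrangement, was 304, 473 and 634 in the surrogate light chain stage, 500, 613 and 711 in the later stage and 175, 102 and 150 in Ms4a1 cells. Its rise to the later stage was 0.49 (SE 0.14, edgeR adjusted p 0.0182), and it was lost in 5 of 16 alternative settings. In Ighd-only cells of WT, Het and KO, Bach2 was 756, 513 and 592, Sox4 968, 844 and 747, and Irf4 496, 614 and 750. For these genes the Ighd-only cells were thus nearer to the later stage than to the Ms4a1 cells.

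**Figure D2:**
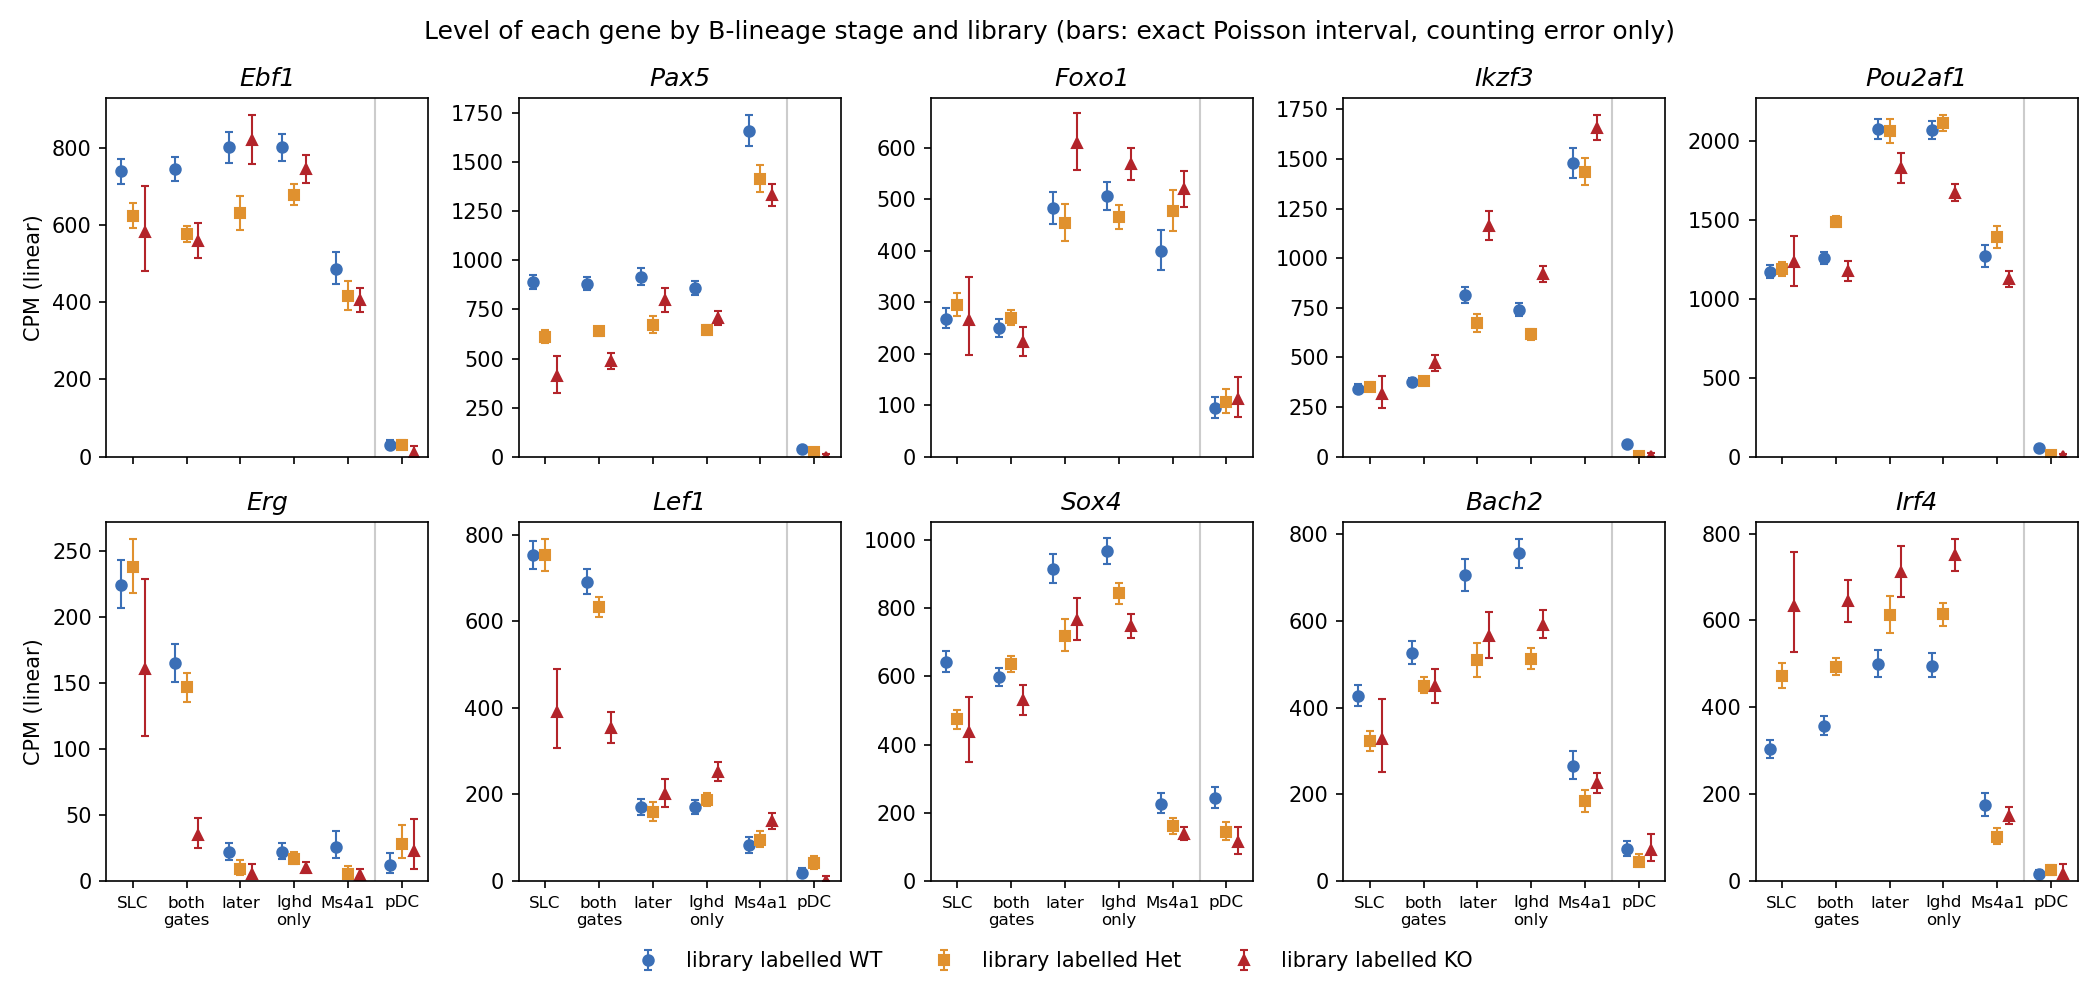
Level of each gene in CPM (vertical axes, linear, a separate scale per gene) in the B-lineage stages of the libraries labelled WT, Het and KO; SLC is the surrogate light chain stage, pDC are plasmacytoid dendritic cells, points are sums over cells and whiskers exact Poisson 95% intervals. Erg and Lef1 are highest at the surrogate light chain gates and Ikzf3 in the Ms4a1 cells in each library.

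From the later to the immature stage, as gated on Ms4a1 or Ighd, 0 members rose and 0 fell by edgeR, where 1.45% of genes rose and 0.0817% fell. At an unadjusted p under 0.05 there were 4 (Ebf1, Sox4, Bach2 and Irf4, all lower), and DESeq2 also called 0. From the surrogate light chain to the immature stage 5 members rose (Ikzf3, Foxo1, Pax5, Pou2af1 and Bach2) and 2 fell (Erg and Lef1), where 18.7% of genes rose and 18.8% fell. The count of members that rose was 3 without the WT library, 2 without Het and 7 without KO, while Erg and Lef1 fell in all 3 of those fits.

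The absence of calls at the step from later to immature rested on the gate and on the dividing cells. Bach2, Irf4 and Sox4 fell with at least 2 UMIs asked at both gates and with gates on thinned counts, where Ikzf3 and Pax5 also rose. Without Mki67 or Top2a cells Bach2, Ebf1, Irf4 and Sox4 fell. With the immature gate on Ms4a1 alone, so that Ighd-only cells joined the later stage, 2 members rose and 6 fell from later to immature, where 17.7% of the 10050 genes tested rose and 17.6% fell. Pax5 rose by 0.95 (edgeR adjusted p 0.000434) and Ikzf3 by 0.94 (edgeR adjusted p 0.000153). Sox4 fell by 2.29 (edgeR adjusted p 3.32e-06), Irf4 by 2.12 (edgeR adjusted p 0.000133) and Bach2 by 1.45 (edgeR adjusted p 1.30e-05). Lef1, Ebf1 and Pou2af1 also fell, by 0.65 to 0.89. Against the surrogate light chain stage 3 rose (Ikzf3, Pax5 and Foxo1) and 6 fell (Erg, Lef1, Irf4, Sox4, Bach2 and Ebf1), where 24.1% of genes rose and 22.9% fell. Set against the later cells as gated at the start, the Ms4a1 cells had 0.247, 0.224 and 0.181 times the Sox4 level and 0.349, 0.166 and 0.211 times the Irf4 level in WT, Het and KO, so the direction was the same in all 3 libraries.

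Some of these steps differed when dividing cells were left out. That setting removed 12 of the 16 KO cells of the surrogate light chain stage, so its KO sum there rests on very few cells. In the cells without Mki67 or Top2a UMIs, the step from surrogate light chain to later stage was -4.74 for Erg, -3.10 for Lef1 and 2.33 for Ikzf3 on the log2 scale, each larger than with all cells and past the test. Foxo1 and Sox4 lost their rise there (0.19 and 0.06, edgeR adjusted p 0.393 and 0.830). Ebf1 then fell by 0.46 (edgeR adjusted p 0.0111) and Pax5 rose by 0.45 (edgeR adjusted p 0.0217).

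**Figure D3:**
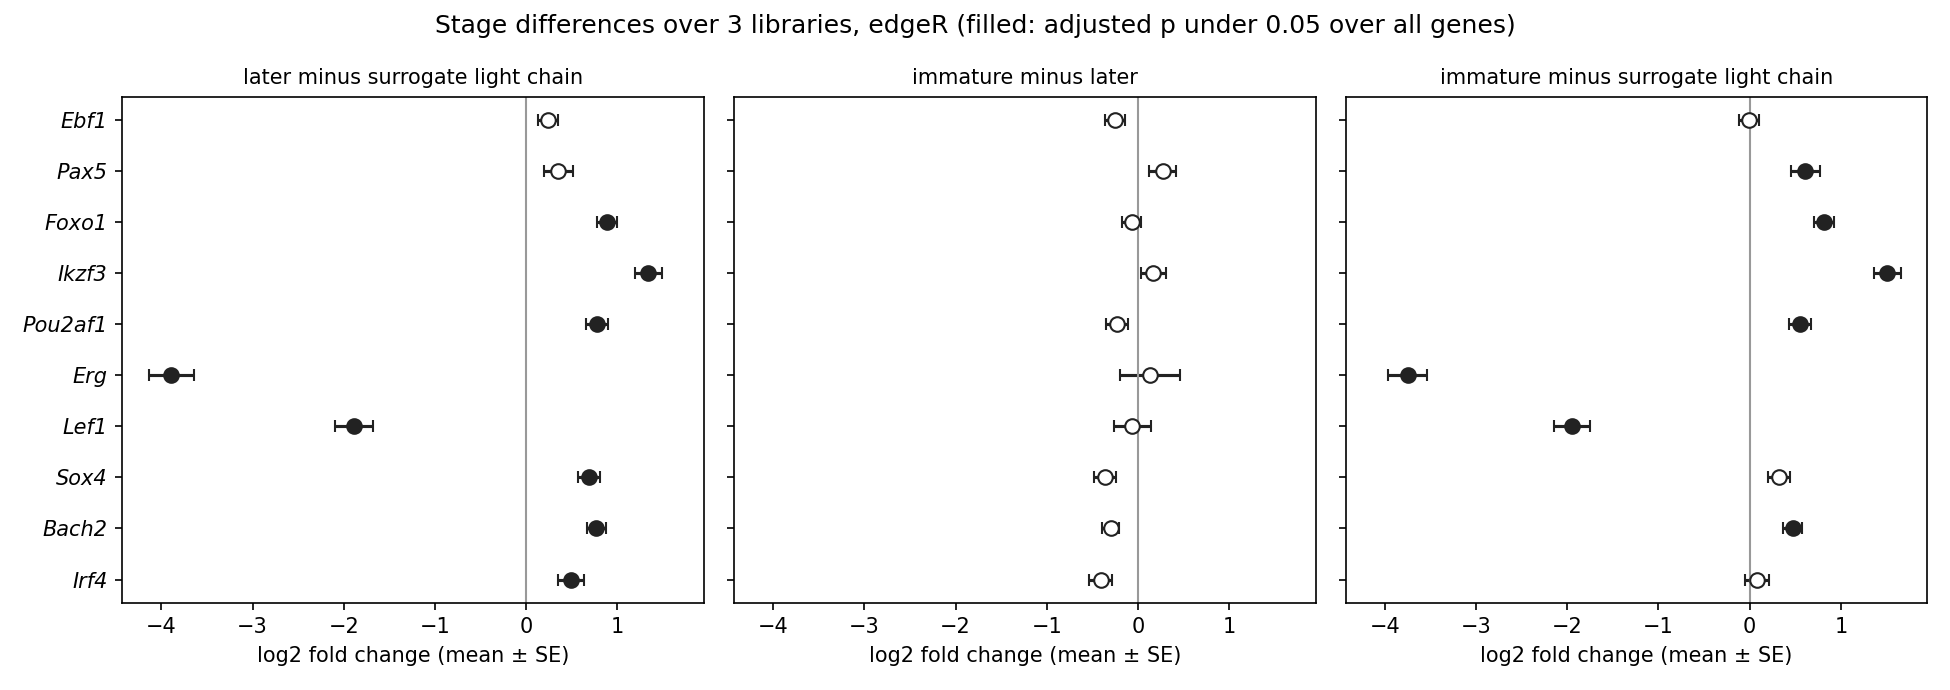
Log2 fold change with its standard error (horizontal axis) of each gene for the later minus surrogate light chain, immature minus later and immature minus surrogate light chain steps over the 3 libraries; filled points passed an edgeR adjusted p under 0.05 over all 9788 genes. Erg (-3.89) and Lef1 (-1.89) lie to the left and Ikzf3 (1.34) to the right at the step to the later stage, and no point is filled at the immature minus later step.

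Over all cells together, 8 of the 10 members were at least 1.5-fold lower in KO than in both other libraries, where 13.7% of 8342 genes were. The exceptions were Erg and Ikzf3. Ebf1 was 96.4 CPM in WT, 59.3 in Het and 22.0 in KO, a KO to WT ratio of 0.228 (95% interval 0.219 to 0.237). Lef1 had the lowest ratio at 0.155 (58.0, 43.8 and 9.01), with Sox4 at 0.193 (124, 81.9 and 24.0). These sums mix the number of B-lineage cells with the RNA in each, which a sum over all cells cannot tell apart. Between 88.0% and 97.2% of the UMIs of Ebf1, Pax5, Pou2af1, Bach2, Ikzf3, Lef1 and Irf4 came from B-lineage cells, and those cells held 3.40% of KO UMIs against 12.3% in WT. The median log2 ratio of KO to WT was -2.04 over the members and -0.14 over all genes. With TMM factors or DESeq2 size factors the all-gene median moved by 0.28 to 0.34, and the Erg ratio of KO to WT, 0.901 in CPM, became 1.10 and 1.09.

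Within B-lineage cells most of these differences were small. Erg and Lef1 were at least 1.5-fold lower in KO than in both other libraries, a call that 12.1% of 8718 genes met, and Ikzf3 was at least 1.5-fold higher, which 9.42% of genes met. Ebf1 stood at 743 CPM in WT, 603 in Het and 621 in KO, and Pax5 at 955, 708 and 841, so for both KO lay between the other libraries. Bach2 was likewise between them at 562, 427 and 453. The median log2 ratio of the members was -0.22 for KO to WT and 0.06 for KO to Het, against 0.01 and 0.00 over all genes. Het differed from WT by as much as KO did for some members: the Het to WT ratio was 0.741 for Pax5, 0.760 for Bach2 and 0.811 for Ebf1, and that of KO to WT 0.881, 0.805 and 0.837.

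Erg was 109 CPM in WT B-lineage cells, 102 in Het and 17.0 in KO. WT and Het were close and KO was far below both, at 0.156 of WT (0.126 to 0.191) and 0.167 of Het (0.135 to 0.204). In neutrophils of the same libraries Erg was 85.6, 90.9 and 86.6, and in stem and progenitor cells 147, 148 and 169, so the KO level was near the others in those cells. In the surrogate light chain stage alone the KO to WT ratio was 0.719 (0.484 to 1.03) over 16 KO cells, and with the cells of both gates added it was 0.279 (0.215 to 0.355) over 83. In the cells that met both gates Erg was 165, 147 and 34.8. Late-stage counts were few, with 4 KO UMIs in the later stage.

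Lef1 in B-lineage cells was 441, 440 and 237 CPM in WT, Het and KO, with KO at 0.537 of WT (0.506 to 0.570). In the surrogate light chain stage KO was 0.519 of WT (0.406 to 0.653) and 0.518 of Het, and with both gates joined 0.499 and 0.536. In the immature stage it was instead 1.40 times WT (1.25 to 1.57) and 1.24 times Het, and in Ms4a1 cells 1.69 and 1.45 times. The gate gene Igll1 was also lower in KO at the same gate, at 1734, 1740 and 1056 CPM, and the neutrophil markers were highest in KO there, as given above; the part of either in the Lef1 value was not tested.

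Ikzf3 in B-lineage cells was 628 CPM in WT, 561 in Het and 1054 in KO, and KO was 1.68 times WT (1.62 to 1.74) and 1.88 times Het. Within stages the ratio to WT was 0.926 in the surrogate light chain stage, 1.43 in the later stage, 1.29 in the immature stage. No stage passed 1.5-fold against both libraries. In cells without Mki67 or Top2a UMIs, or with each cell weighted equally, the B-lineage difference also missed 1.5-fold against both.

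Stage by stage, few members passed 1.5-fold. In the surrogate light chain stage Lef1 was lower in KO (1 of 10, where 20.2% of genes were lower) and 0 were higher (12.0%). In the later stage Erg was lower (1 of 10, background 15.0%) and 0 were higher (12.6%). In the immature stage Erg was lower (1 of 10, 8.53%) and 0 were higher (6.94%). Each count is near or below the share over all genes, so it is not a result about the members. With at least 1 UMI or at least 2 UMIs asked at both gates, 2 members (Erg and Lef1) were lower in the surrogate light chain stage, where 19.2% and 19.7% of genes were.

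Irf4 and Pax5 differed most from WT in the surrogate light chain stage among the other members. Irf4 was 2.09 times WT in KO (1.71 to 2.53) but 1.34 times Het, with Het itself above WT (304, 473 and 634). Pax5 was 0.461 of WT (0.364 to 0.577) and 0.673 of Het. Pou2af1 and Foxo1 were near 1 in that stage, at 1.05 and 0.989 of WT, with intervals of 0.919 to 1.20 and 0.729 to 1.31. In the immature stage Sox4 was 0.647 of WT and 0.726 of Het, and Pou2af1 0.781 and 0.744.

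Each library's 4 sets of B-lineage cells were then weighted by the share of UMIs, not of cells, that each set held in WT. With these weights the differences shrank for the genes that follow the stages. Lef1 became 441, 429 and 288 CPM, a KO to WT ratio of 0.653 in place of 0.537. Ikzf3 became 628, 566 and 797, a ratio of 1.27 in place of 1.68. Erg became 109, 102 and 50.9, a ratio of 0.467 in place of 0.156. Irf4 moved the other way, from 1.44 to 1.58, and Pax5 from 0.881 to 0.708. The KO values lean on its 16 surrogate light chain cells.

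**Figure D4:**
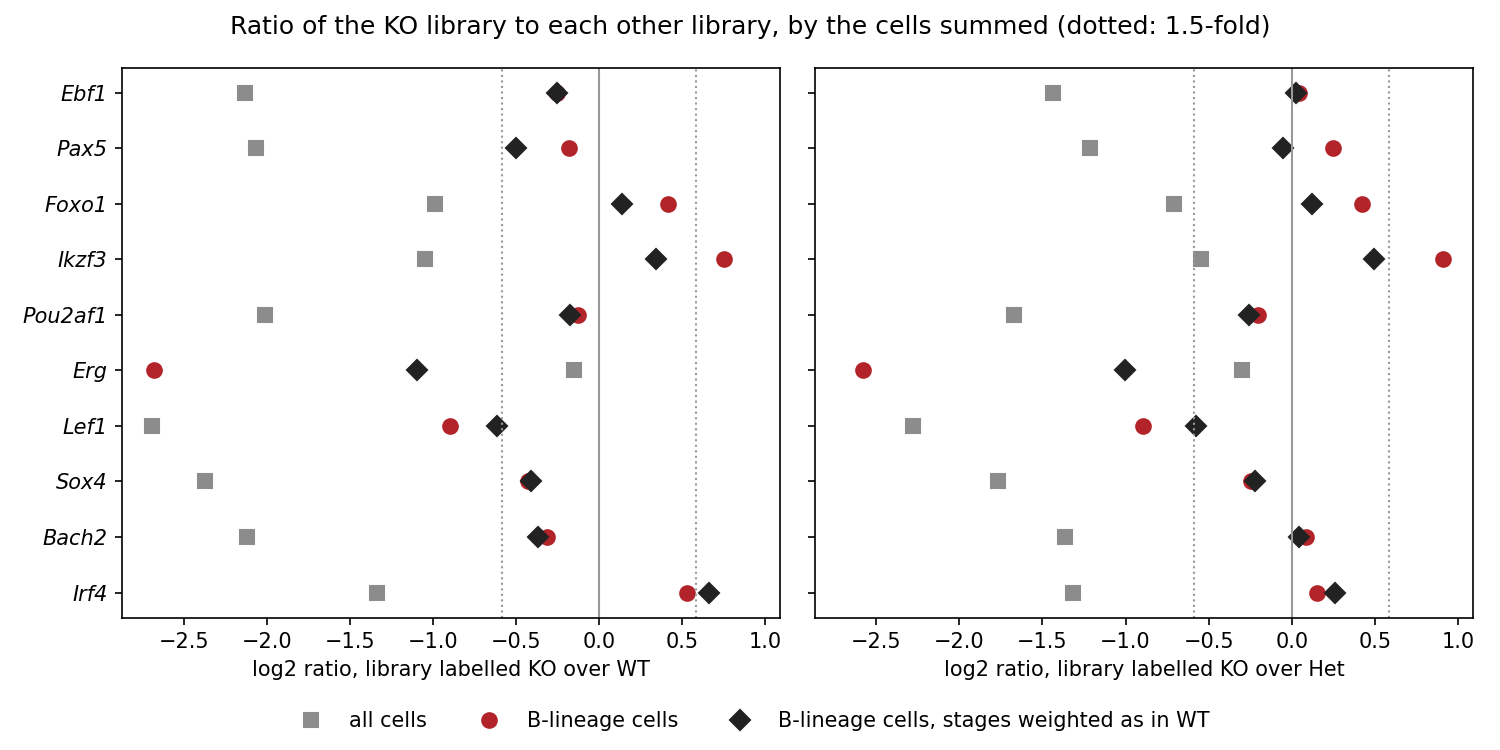
Log2 ratio of the KO library to WT (left) and to Het (right) for each gene over all cells (squares), B-lineage cells (circles) and B-lineage cells with stages weighted as in WT (diamonds); dotted lines mark 1.5-fold. Squares lie left of the dotted lines in both panels for 8 genes, while circles lie within the dotted lines against both libraries for all but Erg, Lef1 and Ikzf3.

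Plasmacytoid dendritic cells held little of most members. They numbered 100 in WT, 44 in Het and 23 in KO, with all 10 of their markers found in each library at a summed 7152 to 8761 CPM. Their cluster was named from the same markers. Ebf1 was 30.9 CPM in them in WT, 29.3 in Het and 9.77 in KO, so B-lineage cells were 24.0, 20.6 and 63.6 times higher. The KO ratio rests on 3 Ebf1 UMIs in plasmacytoid dendritic cells and has an interval of 21.7 to 309. Pax5 was 36.9 and 24.2 in WT and Het and 0 in KO, where 3 counts would be 9.77. Erg, Foxo1, Sox4 and Bach2 were the members nearest to the B-lineage level. Erg was 12.0, 28.0 and 22.8 in plasmacytoid dendritic cells, and B-lineage cells were 9.12, 3.63 and 0.745 times that. The KO ratio rests on 7 Erg UMIs in plasmacytoid dendritic cells and has an interval of 0.349 to 1.90, so it gives no order. Sox4 was 244, 144 and 114, with B-lineage cells only 2.92, 4.37 and 4.66 times higher. Foxo1 was 93.7, 106 and 111, and Bach2 72.7, 44.6 and 71.6. Ikzf3 was 61.8 in WT but 2.55 and 3.26 in Het and KO. Neutrophil markers in these cells summed to 33793, 35146 and 3559, with Elane at 0 in KO; their part was not tested. The median number of members with a UMI in a thinned cell was 1 of 10 in plasmacytoid dendritic cells of each library, 7 in surrogate light chain cells, 5 to 6 in Ms4a1 cells and 0 in neutrophils.

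Across all named cell types the B lineage was highest for 9 of the 10 members by the median over libraries. Erg was the exception, with 148 CPM in stem and progenitor cells, then 102 in the B lineage (17.0 to 109 over libraries), 86.6 in neutrophils and 85.8 in eosinophils, and the last 2 overlap in range. Sox4 followed the B lineage (630) with stem and progenitor cells (395), basophil or mast cells (241) and plasmacytoid dendritic cells (144). Ikzf3 was 450 in natural killer and innate lymphoid cells of Het and 377 in those of KO, and Lef1 98.4 and 178; WT had fewer than 20 such cells and gave no value. B-lineage cells held 95.0%, 95.7% and 96.1% of all Ebf1 UMIs but only 16.0%, 10.3% and 0.763% of Erg UMIs. Unnamed clusters held 41.6%, 63.8% and 74.7% of Erg UMIs, so its order over named cell types leaves out most of its UMIs in Het and KO. Foxo1 was in between, at 83.0%, 76.3% and 60.3%, with 18.5% of its KO UMIs in monocytes.

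**Figure D5:**
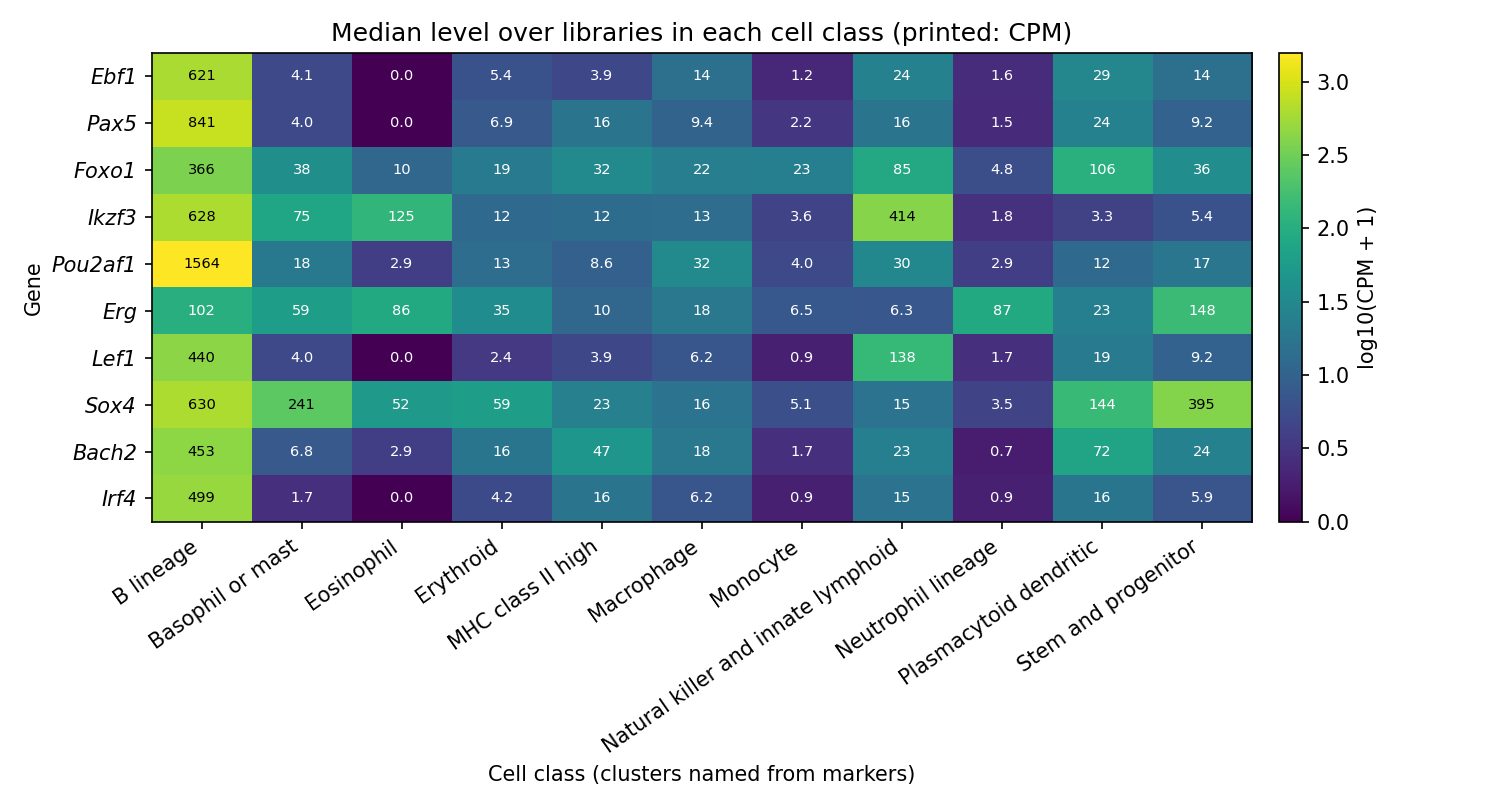
Median over libraries of the level of each gene (rows) in each cell class (columns); colour is log10(CPM + 1) and the printed numbers are CPM. The B-lineage column is highest in every row except that of Erg, where stem and progenitor cells (148) exceed it (102).

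The genes around these factors were read from 5 lists, to be set against the 16.3% of all genes that rose and the 16.2% that fell at the step to the later stage. Of 17 tested targets of Ebf1 and Pax5, 12 rose and 2 fell from the surrogate light chain to the later stage by edgeR (median log2 change 0.67, all genes 0.00). Cd79b, a chain of the B-cell receptor, rose by 0.99 (edgeR adjusted p 6.02e-05), and Cd22, an inhibitory co-receptor, rose by 1.61 to the immature stage (edgeR adjusted p 5.46e-06). Of 15 Foxo1 targets and pre-B signalling genes 10 rose, Ikzf3 among them, and 1 fell (median log2 change 0.70). Of 27 other lymphoid transcription factors 12 rose and 2 fell, with Pou2f2, the octamer factor that Pou2af1 partners, up by 1.44 (edgeR adjusted p 2.76e-05). Of 15 interleukin 7 receptor and recombination genes 4 rose and 2 fell, with Socs2, a brake on cytokine signalling, down by 2.35 (log2 -2.35, edgeR adjusted p 2.85e-05). Of 11 cell division genes 0 passed at any of the 3 steps by edgeR or DESeq2, with 0 at an unadjusted p under 0.05 and a median of -0.26 at the step to the later stage.

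In the B lineage of KO most division genes were lower than in both other libraries. At least 1.5-fold beyond both other libraries, where 9.42% of all genes were higher and 12.1% lower, 4 of 17 Ebf1 and Pax5 targets were higher and 0 lower, among them Cd22 at 91.1, 107 and 211 CPM and Cd79b at 1259, 1389 and 2381 in WT, Het and KO. Of 15 Foxo1 targets and pre-B signalling genes 4 were higher, including Cd74, the invariant chain of MHC class II, at 444, 581 and 1610. Of 26 other lymphoid factors 2 were higher (Bcl6 and Pou2f2), no larger a share than over all genes, and 1 lower, Id3, an inhibitor of E proteins, at 740, 441 and 269. Of 15 interleukin 7 receptor and recombination genes 3 were higher and 1 lower, Socs2 at 54.7, 34.3 and 17.8. Of 11 division genes 10 were lower, such as Plk1 at 207, 285 and 78.3, and dividing cells were 23.8% of the later stage in KO against 41.9% in WT and 52.3% in Het. The part of the stage shares, which differ between the libraries as given above, in these counts was not tested.

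Over 32 sums of a cell class in a library, the genes most like Ebf1, Pax5 and Pou2af1 by Pearson's r of log2(CPM + 10) included Cd79a, a chain of the B-cell receptor (0.973, 0.977 and 0.975). Vpreb3 was among them for Pax5 (0.973) and Pou2af1 (0.976). Bach2 was nearest to Irf4 (0.945), another member. Lef1 was nearest to Ttpal (0.932) and Sorcs2 (0.915), followed by Igll1 (0.912). Erg had no close partner, with Sox13 at 0.805, and Ikzf3 was nearest to Traf3ip2 (0.865). The sums share libraries and depth, and the values describe these cells only.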

How the data were processed

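The deposited files hold counts of UMIs per gene and cell, made by the authors from a fixed-RNA probe assay; per the submitters' processing notes, Cell Ranger 7.0.0 and the mouse build mm10 were used. Each gene is read by probes, so levels are compared within a gene and not between genes. Files of the 3 libraries were read with scanpy 1.11.5. All barcodes had at least 200 genes. Likely doublets (Scrublet) were left out, and cells were clustered on 2000 variable genes (members excluded), 40 components and 20 neighbours, at Leiden resolution 1.0. To be named, a cluster needed at least 3 detected markers of a class and 2 or more of them within its 30 leading genes, a rule set after cluster genes were seen. Counts were summed per stage or class and library and divided by the total (CPM). The Vpreb2 symbol is not used here.

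Stages were compared with edgeR 4.0.16 (quasi-likelihood, TMM, library as a term, Benjamini-Hochberg over 9788 genes, 9 sums), with DESeq2 1.42.0 as an alternative. The edgeR fit was tried on simulated counts for the step from surrogate light chain to immature, and DESeq2 was not. With the library as a term, the p-values set a stage difference against its variation between 3 libraries of different genotype. Between genotypes there was no test: a gene was called past 1.5-fold against both other libraries, among genes with at least 10 CPM and 30 UMIs, and ratios carry exact 95% intervals. The limit for a count of 0 is 3 counts. Gates on single UMIs depend on depth, so shares of cells were also taken after thinning to 3000 UMIs, leaving out 551, 72 and 132 shallower B-lineage cells of WT, Het and KO. Named genes were all members, up to 4 genes per list by largest KO difference, and the 3 most alike genes per member. Members and lists were chosen with earlier results of these data known. Some genes of the lists are not reported here.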

Additional observations from a re-analysis of the deposited data

Results flagged for a closer look

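The Lef1 difference between the libraries labelled KO and WT ran in opposite directions in 2 stages. In the surrogate light chain stage the KO level was 0.519 times that of WT, and in the immature stage it was 1.40 times that of WT. The Het library gave the same directions, with KO at 0.518 and 1.24 times its level. The difference between the stages was not tested, since each genotype has 1 library.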

How the results depend on the processing

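No paired analysis of genotypes was possible because each genotype has 1 library and only replicate number 1. Stages were compared within libraries, with the library as a term. Erg and Lef1 (lower) and Ikzf3 (higher) kept their calls against the surrogate light chain stage, to the later and to the immature stage, in all 16 alternatives, as did Pou2af1 to the later stage. Where a value moved, the cause was not tested. The KO values of the surrogate light chain stage rest on 16 cells. Of these, 12 had Mki67 or Top2a UMIs and were left out in the setting without dividing cells.

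Members lower in KO in the surrogate light chain stage were 2 in place of 1 (Erg and Lef1) with at least 1 UMI or at least 2 UMIs at both gates, gates on thinned counts, no clustering, both-gate cells joined and the immature gate on Ms4a1 alone, where 19.2%, 19.7%, 11.0%, 18.5%, 9.50% and 9.39% of all genes were. Without Mki67 or Top2a cells they were 2 (Ikzf3 and Lef1), with 29.0% of all genes. Those lower in the later stage were 0 with at least 2 UMIs, thinned gates or no clustering, and 1 was higher with thinned gates. Those lower in the immature stage were 0 with Ms4a1 alone. In the B lineage 0 were higher without dividing cells or with cells weighted equally.

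The immature share of KO over WT was 2.18 with at least 2 UMIs. Thinned gates gave KO over WT and Het of 1.04 and 1.03 (later) and 2.04 and 1.64 (immature). Joining both-gate cells gave 0.297 and 0.263 for the surrogate light chain share. The gate on Ms4a1 alone gave 0.296 and 0.270 (surrogate light chain), 1.10 over WT (later), and 2.36 and 1.91 (immature).

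By edgeR without the library term, 3 members rose to the later and 2 to the immature stage from the surrogate light chain. Leaving out each library, 2 to 7 rose to the immature stage (3 without WT, 2 without Het). From later to immature, 3 fell with at least 2 UMIs, 2 rose and 3 fell with thinned gates, 2 rose and 6 fell with Ms4a1 alone, and 4 fell without dividing cells. From surrogate light chain to immature, 3 rose and 6 fell with Ms4a1 alone, and 4 fell without dividing cells.

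Single genes turned direction as follows. With Ms4a1 alone, Pax5 KO over Het was 0.944 and Irf4 KO over WT 0.858 in the immature stage, and the log2 step from surrogate light chain to immature was -0.95 for Bach2, -1.70 for Sox4 and -1.71 for Irf4. Without dividing cells, 12 of the 16 KO cells of the surrogate light chain stage were left out. In that stage KO over WT was then 1.11 for Ebf1, and KO over Het 1.28 for Pax5 and 1.01 for Erg. In the later stage KO over Het was 0.879 for Pax5 and 0.944 for Foxo1, and KO over WT 0.991 for Ikzf3. In the immature stage KO over Het was 0.909 for Pax5 and 0.949 for Foxo1, and KO over WT 0.983 for Foxo1. In the B lineage KO over Het was 0.978 for Pax5, and Foxo1 was 0.967 of WT and 0.927 of Het. The step to the later stage was -0.46 for Ebf1, and that to the immature stage -0.03 for Foxo1 and -0.54 for Sox4. With TMM factors Erg over all cells was 1.10 of WT and 1.03 of Het, and with DESeq2 size factors 1.09 and 1.00. With cells weighted equally KO over Het in the later stage was 0.844 for Pax5 and 0.934 for Lef1. The gate on Ms4a1 alone, the joining of both-gate cells and the fit without dividing cells were chosen after the data were seen.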
